A study of Mus musculus with 6 samples.

Results

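The genes described here encode the machinery that takes a cell from growth-factor signalling into the division cycle. They are the D-type cyclins Ccnd1, Ccnd2 and Ccnd3, their kinases Cdk4 and Cdk6, the inhibitors Cdkn1b, Cdkn2a and Cdkn2c, and the pocket proteins Rb1 and Rbl1. Members were taken by symbol from the deposited count table, where 10 of 32285 genes matched, and all 10 passed the filter on low counts that left 14912 genes. The group was chosen by gene symbol while the log2 fold changes between media were already known, so that difference is described for them without a test.

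Cells of the wild-type line DBA-GFP GS, cultured mouse germline stem cells that serve as the in vitro form of spermatogonial stem cells, were grown in a medium named for 8 mM pyruvate (3 libraries) or in complete medium, called control here (3 libraries). All libraries come from this 1 line, and nothing in the labels says that they came from separate cultures, so p-values reflect the spread between these libraries alone, which may be technical. The study concerns alanine metabolism and energy balance in these cells, and the comparison shows how transcripts differ between the media. Messenger RNA was sequenced in bulk, where fewer cells of a type and less RNA per cell cannot be told apart.

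D-type cyclins are made in response to mitogens and bind CDK4 or CDK6. The kinase complex phosphorylates the retinoblastoma protein and its relatives, which releases E2F transcription factors and lets the cell begin DNA replication. The INK4 inhibitors block the kinases, and p27, the product of Cdkn1b, mainly restrains cyclin E with CDK2. In mouse germline stem cells, active Ras or forced cyclin D2 has been reported to sustain self-renewal.

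The starts of the 3 cyclin coding sequences are shown because they carry a motif that contacts pocket proteins. These starts also show how far the transcripts differ from each other. Capitals mark the codons of this leucine-x-cysteine-x-glutamate motif, by which D-type cyclins can bind pocket proteins. The first 45 coding bases, from GENCODE M21 transcripts on GRCm38, lie in the first coding exon of each gene.
Ccnd1 (chr7:144939649-144939693, minus strand): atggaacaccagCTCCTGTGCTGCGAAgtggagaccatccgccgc
Ccnd2 (chr6:127150729-127150773, minus strand): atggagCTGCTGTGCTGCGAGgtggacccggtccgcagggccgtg
Ccnd3 (chr17:47593655-47593699, plus strand): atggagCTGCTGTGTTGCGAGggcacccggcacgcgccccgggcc
The motif was found once in each, at bases 13 to 27 in Ccnd1 and at bases 7 to 21 in the other two. The longest run without a mismatch between the coding sequences of Ccnd1 and Ccnd2 was 20 bases, ttcaagtgcgtgcagaagga, at bases 133 to 152 of Ccnd1. It was 17 bases between Ccnd1 and Ccnd3, 14 bases between Ccnd2 and Ccnd3, and 20 bases between Cdk4 and Cdk6. Part of the sequence of Ccnd3, Cdk4 and Cdk6 also occurs outside the family: 5.39%, 17.0% and 3.32% of their 50-base windows are found in 46, 67 and 425 other genes.

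Cdkn1b is the inhibitor that stood higher in pyruvate medium, and the 250 bases before its start are shown (RefSeq, GRCm38.p6, chr6:134920151-134920400, plus strand). Capitals mark matches to CCAAT or GGGCGG on either strand.
Cdkn1b: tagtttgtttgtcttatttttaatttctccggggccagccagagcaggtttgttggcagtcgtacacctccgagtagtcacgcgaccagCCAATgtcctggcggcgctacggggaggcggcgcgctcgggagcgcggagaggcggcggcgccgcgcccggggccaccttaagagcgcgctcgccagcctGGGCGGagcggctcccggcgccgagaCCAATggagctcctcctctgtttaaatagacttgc
It holds 2 CCAAT boxes and 1 GC box, which are found in 33.9% and 32.7% of 32851 promoters of the same length. The E2F letters TTTCCCGC, TTTCGCGC, TTTGCCGC and TTTGGCGC, the cyclic AMP response element TGACGTCA and the FOXO letters GTAAACA were not in this window. Promoters were held for 7 of the 10 genes at 10 start sites. An E2F match was found in 2 of these, at Rbl1 and at the upstream start of Cdkn2a, against 1.86% of all promoters. Ccnd1, Ccnd2 and Rb1 had no entry.

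Among the libraries, control replicate 2 stood apart, at 36.5 on the first principal component while the other controls lay at -4.12 and 0.81, and values that turn without it are given both ways. Pyruvate replicate 1 lay at the opposite end of that component, at -27.2, while pyruvate replicates 2 and 3 lay at -1.42 and -4.64. Totals ran from 20918312 to 26413080 counts, so that 3 counts correspond to 0.114 to 0.143 CPM, the count scaled to library size. All 17 germline stem cell markers were detected, with a summed level of 4323 to 4748 CPM in pyruvate medium and 4492 to 5265 CPM in control. Markers of fibroblast-type feeder cells, which also use D-type cyclins, summed to 672 to 714 CPM in pyruvate medium and 619.8 to 692 CPM in control, mostly Fn1 and Col5a1, with none of 16 at 0 in every library. Sertoli, Leydig, endothelial and macrophage lists summed to at most 30.8 CPM in any library, and Fshr, Hsd3b1, Insl3, Lhcgr, Emcn and Adgre1 were at 0 counts. Markers of differentiating spermatogonia and meiosis summed to 652 to 800.1 CPM in pyruvate medium and to 817 to 904 CPM in control. Sohlh2 was the highest of them, at a mean of 314 CPM in pyruvate medium and 373 CPM in control. Kit, Stra8, Dmrtb1, Sohlh2, Sycp1 and Prdm9 had lower means in pyruvate medium, and Sohlh1, Sycp3, Spo11 and Dmc1 had higher ones. The part of these other cell states in the results below was not tested.

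Of the D-type cyclins, Ccnd1 and Ccnd2 stood lower in pyruvate medium and Ccnd3 did not separate the media. Ccnd1, the cyclin most directly induced by growth factors, had 98.0, 107 and 104 CPM in pyruvate replicates 1 to 3, against 149.5, 161 and 152 CPM in control replicates 1 to 3. Every pyruvate library lay below every control library, and the gap between the groups was wider than the spread within either. The mean was 103 ± 4.31 CPM in pyruvate medium and 154 ± 5.90 CPM in control (SD, n = 3 each), a ratio of 0.667, with a log2 fold change of -0.58 (SE 0.074). Ccnd1 (ENSMUSG00000070348, chromosome 7, 144929931 to 144939925, GRCm38) overlaps exons of LTO1 on the opposite strand, and 21.6% of its 50-base windows also occur there. LTO1 stood at 17.4 ± 0.38 CPM in pyruvate medium and 14.98 ± 1.14 CPM in control. Its part in the counts of Ccnd1 was not tested.

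Ccnd2, the cyclin tied to self-renewal in these cells, had 677, 925 and 969 CPM in pyruvate replicates 1 to 3, against 993, 1277 and 996 CPM in control replicates 1 to 3. The groups did not overlap but nearly touched, and the outermost libraries were pyruvate replicate 1 at the low end and control replicate 2 at the high end. Means were 857 ± 157 CPM in pyruvate medium and 1089 ± 163 CPM in control, with a log2 fold change of -0.35 (SE 0.15). The fold change was -0.20 without pyruvate replicate 1 and -0.21 without control replicate 2, so those libraries set much of its size. Ccnd2 (ENSMUSG00000000184, chromosome 6, 127125162 to 127152193) overlaps opposite-strand models that stood at no more than 0.93 CPM in any library.

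Ccnd3, the third D-type cyclin, had 119, 116 and 121 CPM in pyruvate replicates 1 to 3, against 123, 98.8 and 121 CPM in control replicates 1 to 3. The groups overlapped, and control replicate 2 alone was low. Its log2 fold change was 0.05 (SE 0.097), and it was -0.05 without control replicate 2 and 0.11 without control replicate 1. Ccnd3 (ENSMUSG00000034165, chromosome 17, 47505051 to 47599691) shares exons with Bysl on the opposite strand, which stood at 94.6 ± 1.56 CPM in pyruvate medium and 94.6 ± 9.44 CPM in control.

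Levels of different genes are compared per length, as CPM divided by the length of merged exons in kilobases (RPKM). Summed over the 3 D-type cyclins, the level was 106, 134 and 139 RPKM in pyruvate replicates 1 to 3, against 151, 181 and 152 RPKM in control replicates 1 to 3. The sum was lower in every pyruvate library. Ccnd2 made up most of it, at 71.7% ± 3.55 in pyruvate medium and 71.5% ± 3.02 in control. Ccnd1 made up 17.4% ± 1.93 in pyruvate medium and 20.3% ± 1.31 in control, and these shares overlapped between groups. Ccnd3 made up 10.8% ± 1.65 in pyruvate medium and 8.20% ± 1.72 in control. Its shares did not overlap. They were 12.7%, 9.84% and 9.92% in pyruvate replicates 1 to 3, against 9.29%, 6.22% and 9.10% in control replicates 1 to 3. The level of Ccnd3 itself overlapped between media, so its higher share goes with the lower Ccnd1 and Ccnd2 in the sum. These shares also depend on the gene length used.

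**Figure D1:**
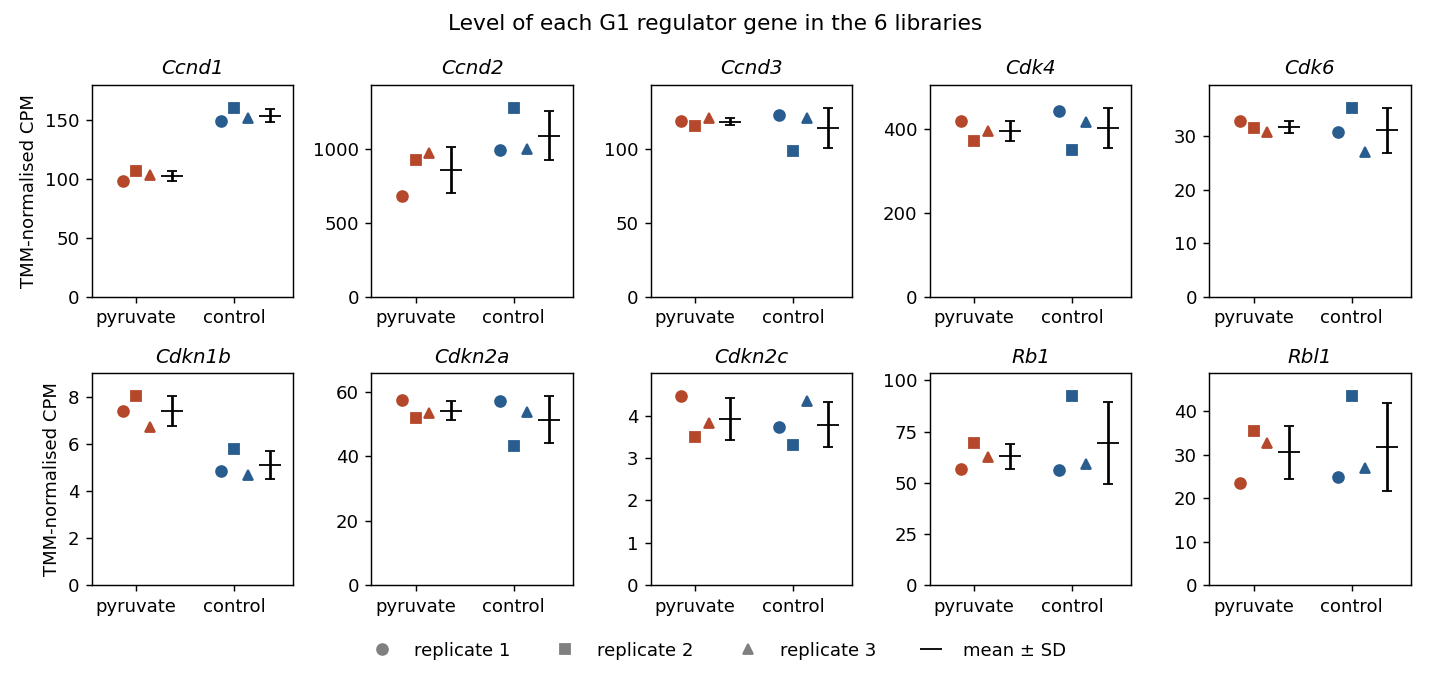
TMM-normalised CPM of the 10 genes in each library, with pyruvate libraries in red on the left and control libraries in blue on the right of each panel, symbols for replicates, and the mean ± SD of each group in black. Ccnd1 at 98.0 to 107 CPM in pyruvate medium and Cdkn1b at 6.73 to 8.03 CPM lie clear of their controls. Rb1 and Rbl1 are highest in control replicate 2, and Rbl1 is lowest in pyruvate replicate 1.

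The kinases were close to level between media. Cdk4, the main partner of D-type cyclins by abundance here, had 419, 371 and 395 CPM in pyruvate replicates 1 to 3, against 442, 349 and 415 CPM in control replicates 1 to 3. The groups overlapped, and the log2 fold change was -0.03 (SE 0.10), or -0.12 without control replicate 2 and 0.05 without control replicate 1. Cdk6, the second partner, had 32.9, 31.5 and 30.8 CPM in pyruvate replicates 1 to 3, against 30.8, 35.3 and 27.1 CPM in control replicates 1 to 3. Its log2 fold change was 0.03 (SE 0.11), or 0.13 without control replicate 2 and -0.06 without control replicate 3, and the controls spread more widely than the pyruvate libraries. Per length, Cdk4 exceeded Cdk6 by a ratio of 53.6 ± 2.44 in pyruvate medium and 56.8 ± 12.5 in control. Exons of Cdk4 (ENSMUSG00000006728, chromosome 10, 127063534 to 127067920) overlap Tspan31 on the opposite strand, which stood at 33.2 ± 0.74 CPM in pyruvate medium and 40.7 ± 5.24 CPM in control. Cdk6 is ENSMUSG00000040274 (chromosome 5, 3341485 to 3531008), and the model that overlaps it had 0 counts.

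Of the inhibitors, Cdkn1b stood higher in pyruvate medium and the INK4 genes did not separate the media. Cdkn1b (ENSMUSG00000003031, chromosome 6, 134920401 to 134925513) had 186, 207 and 148 counts in pyruvate replicates 1 to 3, against 105, 147 and 98 counts in control replicates 1 to 3. Scaled to depth these were 7.41, 8.03 and 6.73 CPM in pyruvate medium, against 4.83, 5.77 and 4.68 CPM in control. All 3 pyruvate libraries lay above all 3 controls. Means were 7.39 ± 0.65 CPM in pyruvate medium and 5.09 ± 0.59 CPM in control, 1.45-fold higher, with a log2 fold change of 0.53 (SE 0.14). No exon of another gene overlaps it and none of its 50-base windows occurs in another gene.

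Cdkn2a encodes p16INK4a, which blocks CDK4 and CDK6, and from another first exon p19ARF, which stabilises p53; counts per gene do not tell these transcripts apart. It had 57.4, 51.7 and 53.4 CPM in pyruvate replicates 1 to 3, against 57.2, 43.2 and 53.7 CPM in control replicates 1 to 3. The groups overlapped, with a log2 fold change of 0.08 (SE 0.12) that was -0.03 without control replicate 2 and 0.16 without control replicate 1. Cdkn2a is ENSMUSG00000044303 (chromosome 4, 89274471 to 89294653). Cdkn2c, which encodes the INK4 protein p18, had 4.46, 3.49 and 3.82 CPM in pyruvate replicates 1 to 3, against 3.72, 3.30 and 4.35 CPM in control replicates 1 to 3. With 81 to 112 counts per library it was among the least abundant members, its groups overlapped, and its log2 fold change was 0.05 (SE 0.17). It was -0.04 without control replicate 2 or without pyruvate replicate 1, and 0.17 without control replicate 3. Cdkn2c is ENSMUSG00000028551 (chromosome 4, 109660876 to 109667189).

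The pocket proteins varied more within the control group than between media. Rb1, the retinoblastoma protein, had 56.7, 69.3 and 62.6 CPM in pyruvate replicates 1 to 3, against 56.5, 92.3 and 59.0 CPM in control replicates 1 to 3. Control replicate 2 was the highest of the 6 and the other controls lay at the level of the lower pyruvate libraries. The log2 fold change was -0.14 (SE 0.19) and became 0.12 without control replicate 2 and -0.27 without control replicate 1. Rb1 (ENSMUSG00000022105, chromosome 14, 73183673 to 73325822) overlaps Rcbtb2, at 25.3 ± 2.22 CPM in pyruvate medium and 24.1 ± 1.19 CPM in control, and Lpar6, at no more than 0.427 CPM in any library, both on the opposite strand.

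Rbl1, which encodes the pocket protein p107, had 23.5, 35.3 and 32.7 CPM in pyruvate replicates 1 to 3, against 24.9, 43.5 and 27.0 CPM in control replicates 1 to 3. The groups overlapped, and the log2 fold change of -0.06 (SE 0.23) became 0.24 without control replicate 2. It was 0.10 when pyruvate replicate 1 was left out and -0.21 when control replicate 1 was. Rbl1 is ENSMUSG00000027641 (chromosome 2, 157145893 to 157204534).

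Across the 10 genes, log2 fold changes had a median of 0.0011, beside -0.01 over all tested genes, with 5 above 0 and 5 below. The groups did not overlap for Ccnd1, Ccnd2 and Cdkn1b, or 3 of 10 genes beside 22.5% of all tested genes, and these 3 were separated under each of the 4 scalings tried. By edgeR's quasi-likelihood test over all genes 0 of 10 passed an adjusted p of 0.05, beside 0.0536% of all genes. With limma-voom 0 of 10 passed (background 0.0536%), and with DESeq2 1 of 10, Ccnd1 (background 2.17%). Without control replicate 2, edgeR called 2 of 10, Ccnd1 lower and Cdkn1b higher, beside 4.16% of all genes. Leaving out any other library gave 0 of 10, where 0 genes were called higher and 0 to 3 lower over the whole table. With the size factors of DESeq2 in edgeR it was also 0 of 10, beside 3 genes higher and 5 lower. With a filter of 5 CPM in 3 libraries it was 0 of 10 too, beside 1 higher and 5 lower. Ccnd1 was the 1 gene of 10 called, as lower, with library totals (0.0939% of all genes), upper-quartile factors (0.101%), no filter (0.371%) and the replicate number as a block (1.78%). With the GC and length trend removed edgeR called Ccnd1 and Cdkn1b, 2 of 10 beside 3.95%. At an unadjusted p under 0.05 the count was 2 of 10, Ccnd1 and Cdkn1b, beside 14.4%. These counts come from the contrast with which the genes were chosen, and nothing is read from them.

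**Figure D2:**
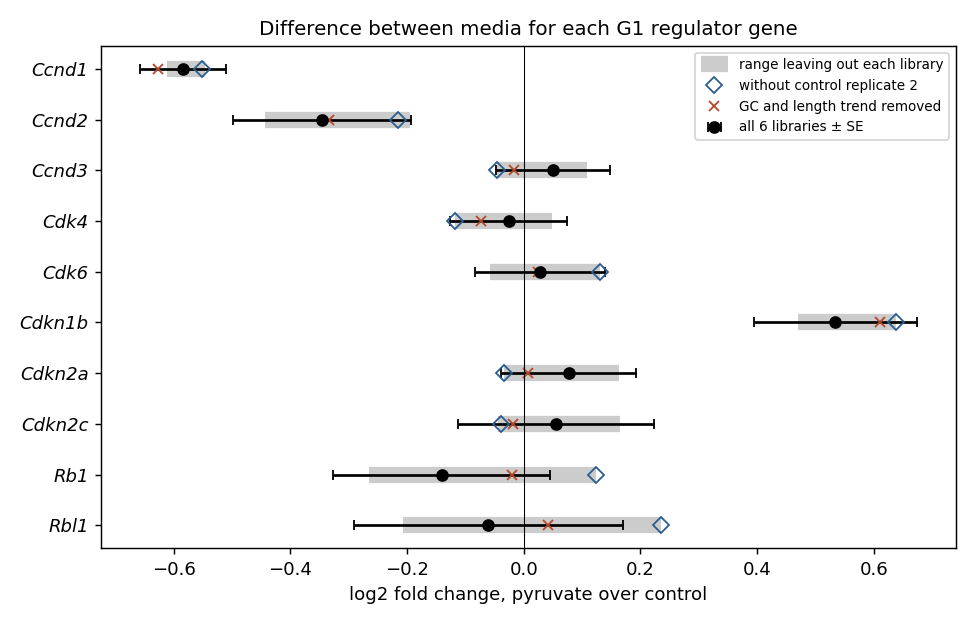
Log2 fold change of pyruvate over control for the 10 genes, as black points with SE, with grey bars for the range over fits that leave out each library in turn, open diamonds for the fit without control replicate 2 and crosses for values with the GC and length trend removed. The bars of Ccnd1 (-0.61 to -0.55), Ccnd2 (-0.44 to -0.20) and Cdkn1b (0.47 to 0.64) stay on one side of 0, and those of the other 7 genes cross it.

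Per length, the order of levels over all libraries was Cdk4, Ccnd2, Cdkn2a, Ccnd1, Ccnd3, Rb1, Rbl1, Cdk6, Cdkn2c and Cdkn1b. The order ran from a mean of 123 RPKM for Cdk4 and 103 RPKM for Ccnd2 to 1.44 RPKM for Cdkn2c and 1.37 RPKM for Cdkn1b. Cdk4 and Ccnd2 overlapped in range and Cdk4 was above in 5 of 6 libraries, the exception being control replicate 2. Ccnd3 and Rb1 overlapped likewise, and Cdkn2c and Cdkn1b could not be ordered, each being higher in 3 libraries. The other neighbours did not overlap. Cdkn2a averaged 46.2 ± 2.49 RPKM in pyruvate medium and 43.8 ± 6.23 RPKM in control, above Ccnd1 at 21.8 ± 0.92 RPKM in pyruvate medium and 32.7 ± 1.25 RPKM in control. The INK4 gene Cdkn2a was thus among the more abundant transcripts of the group. With the length of the longest transcript in place of merged exons, the order of the means over all libraries was the same, but that of Ccnd1 and Ccnd3 then depended on the medium. Ccnd1 averaged 27.5 RPKM in pyruvate medium and 41.2 RPKM in control, while Ccnd3 averaged 30.7 RPKM in pyruvate medium and 29.7 RPKM in control. Ccnd3 lay above Ccnd1 in all 3 pyruvate libraries and below it in all 3 controls. On that length Cdkn2c was above Cdkn1b in 5 of 6 libraries.

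**Figure D3:**
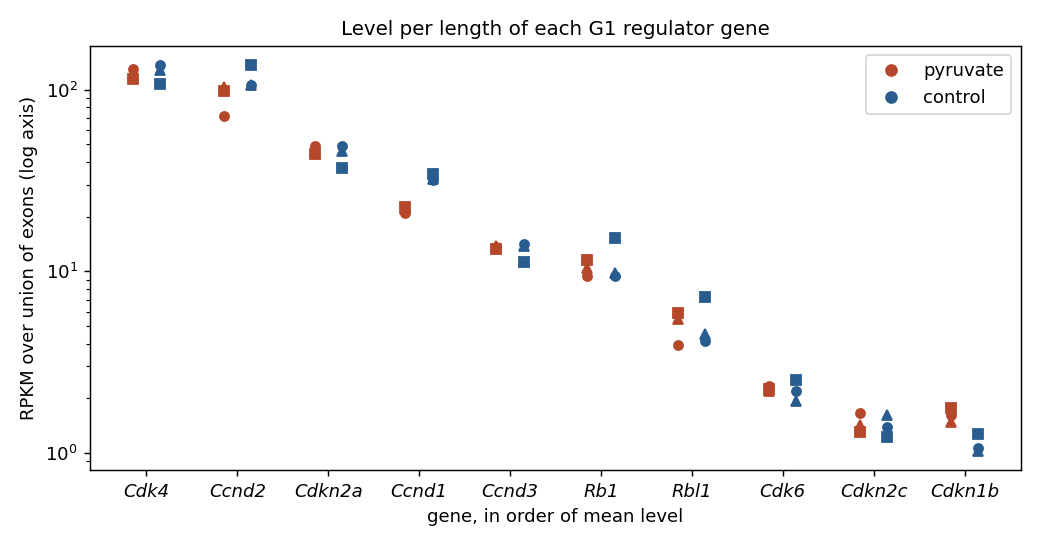
Level per length (RPKM, log axis) of the 10 genes in order of their mean, with the pyruvate libraries in red left of the control libraries in blue and a symbol per replicate as in the plot of CPM by library. Levels fall from a mean of 123 RPKM for Cdk4 to 1.37 RPKM for Cdkn1b, and Cdkn1b passes Cdkn2c in 3 of the 6 libraries.

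Within groups, several libraries deviated for most of the genes together. In control replicate 2, Ccnd1, Ccnd2, Cdk6, Cdkn1b, Rb1 and Rbl1 lay above their control mean and Ccnd3, Cdk4, Cdkn2a and Cdkn2c below it. Rbl1 deviated most, by 0.50 on the log2 scale, followed by Rb1 at 0.45. Pyruvate replicate 2 deviated from its own group to the same side as control replicate 2 for 9 of 10 genes, and pyruvate replicate 1 to the opposite side for 8 of 10. Pyruvate replicate 3 was divided, with 5 genes on either side, while control replicates 1 and 3 lay opposite for 9 and 10 genes, as they must in part when deviations in a group sum to 0. Ccnd1 varied least, with deviations of -0.07 to 0.06. Gene length and base composition moved with these deviations, and their part in them was not tested. Over 14908 genes, the Spearman correlation of a library's deviation with exon length was -0.27, 0.18 and 0.19 in pyruvate replicates 1 to 3, against -0.40, 0.47 and -0.34 in control replicates 1 to 3. With GC content it was 0.41, -0.43 and -0.12 in pyruvate replicates 1 to 3, against 0.48, -0.53 and 0.36 in control replicates 1 to 3. These are correlations across genes of one library, which share its preparation. With the trend in length and GC removed, log2 fold changes were -0.63 for Ccnd1, -0.33 for Ccnd2 and 0.61 for Cdkn1b, and all other members lay between -0.07 and 0.04.

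**Figure D4:**
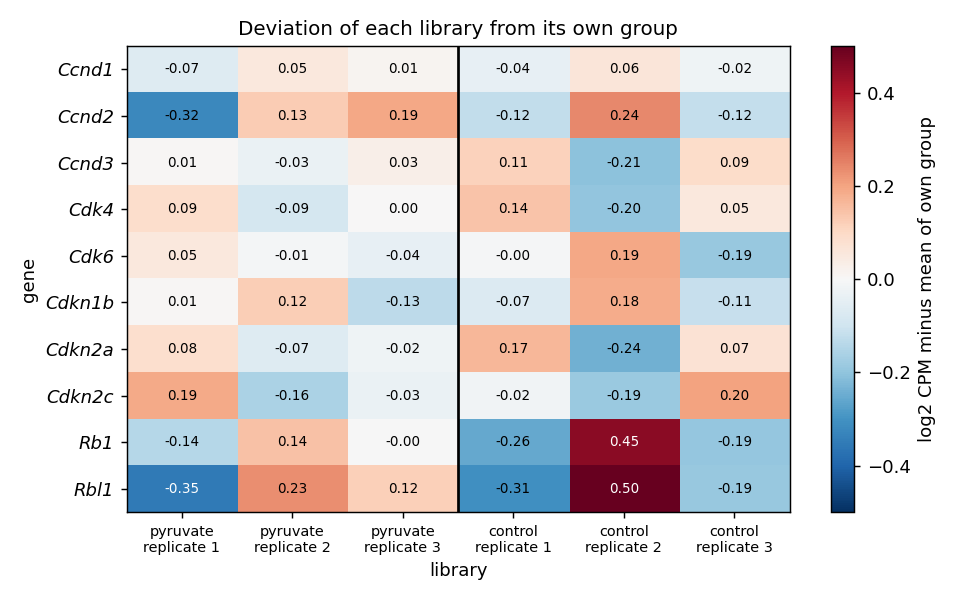
Deviation of each library from the mean of its own group (log2 CPM) for the 10 genes, with pyruvate libraries left of the line and controls right of it. Rb1 and Rbl1 reach 0.45 and 0.50 in control replicate 2, where Cdk4 and Cdkn2a lie at -0.20 and -0.24.

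The genes around this switch were followed in 6 lists with 100 genes in all, which were written with earlier results of these data known and so are not independent evidence of a direction. With p-values adjusted over all genes, edgeR and limma-voom called 0 of the 100 in either direction, while 18 had an unadjusted p under 0.05 in edgeR, beside 14.4% of all genes, and DESeq2 called 3, all lower, beside 2.17%. Both shares are near those of all genes. The libraries of the media were separated for 28 genes with pyruvate below, beside 10.6% of all tested genes, and for 3 genes with pyruvate above, beside 11.9%. Without control replicate 2 edgeR called 4 lower, beside 1.82%, and 1 higher, beside 2.33%.

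E-type cyclins act after the D-type cyclins by activating CDK2. Their list also holds Cdk2 and genes that activate CDKs. Of its 7 genes, 6 lay below 0 with a median log2 fold change of -0.14, which is the value of Ccnh, beside -0.01 over all genes. Ccne1, cyclin E1, had 42.7, 47.4 and 45.8 CPM in pyruvate replicates 1 to 3, against 60.6, 54.2 and 58.7 CPM in control replicates 1 to 3. The groups did not overlap, and the log2 fold change was -0.35 (SE 0.087, adjusted p = 0.155 by edgeR); without control replicate 2 Ccne1 fell (log2 -0.40, adjusted p = 0.0235 by edgeR), and over all alternatives the adjusted p ran from 0.0235 to 0.433. Cdc25a, the phosphatase that activates CDK2, stood at log2 -0.17 and Ccnh, a subunit of the kinase that activates CDKs, at -0.14, both below every control library but with adjusted p = 0.368 and 0.448 by edgeR. With the GC and length trend removed the value of Ccnh was 0.00. Exons of Ccnh overlap Rasa1 on the opposite strand.

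Targets of E2F, the factors that the pocket proteins hold back, had 25 of 27 genes below 0. Their median was -0.15, beside -0.01 over all genes. Pyruvate libraries were all below control for 15 of the 27, beside 10.6% of all tested genes. The list was written with earlier results known, and nothing is read from these counts. Prim1, the small primase subunit, stood at 72.6 ± 3.54 CPM in pyruvate medium and 93.4 ± 0.84 CPM in control (log2 -0.36, adjusted p = 0.123 by edgeR). Rrm2, which makes deoxynucleotides, stood at 100.6 ± 14.3 CPM in pyruvate medium and 145 ± 7.78 CPM in control (log2 -0.53, adjusted p = 0.124 by edgeR). Uhrf1, which guides maintenance DNA methylation, stood at 779.6 ± 66.1 CPM in pyruvate medium and 959.9 ± 22.9 CPM in control (log2 -0.30, adjusted p = 0.175 by edgeR). Without control replicate 2 all 3 fell (adjusted p = 0.0230, 0.0340 and 0.0379 by edgeR). Over all alternatives the adjusted p ran from 0.0123 to 0.394 for Prim1, 0.00557 to 0.394 for Rrm2 and 0.0277 to 0.444 for Uhrf1.

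The E2F factors, their DP partners and the DREAM subunits had 14 of 16 genes below 0 and a median of -0.15. Pyruvate libraries were all below control for 4 of them, beside 10.6% of all tested genes. The median was -0.09 without control replicate 2 and -0.08 without pyruvate replicate 1. Rbbp4, a histone-binding subunit, stood at 373 ± 4.58 CPM in pyruvate medium and 417 ± 12.2 CPM in control (log2 -0.16, adjusted p = 0.321 by edgeR), and its exons overlap opposite-strand genes. E2f2, an activating E2F, stood at log2 -0.23 and E2f6, a repressing one, at 0.18, with adjusted p = 0.346 and 0.391 by edgeR.

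The list of other CDK inhibitors and the genes of their turnover went both ways, 5 above 0 and 5 below. Its median was -0.03, or 0.02 without control replicate 2. The list also holds Kpnb1, a nuclear import receptor that is neither, at log2 -0.15. Cdkn1c, which encodes p57 and is imprinted, had 75.2, 62.3 and 58.1 CPM in pyruvate replicates 1 to 3, against 53.4, 50.5 and 50.1 CPM in control replicates 1 to 3. All pyruvate libraries lay above the controls (log2 0.34, SE 0.11, adjusted p = 0.219 by edgeR), and an opposite-strand model overlaps its exons. Cdkn1a, the p21 gene induced by p53, stood at 18.6 ± 2.18 CPM in pyruvate medium and 23.4 ± 3.30 CPM in control (log2 -0.33, adjusted p = 0.324 by edgeR). Its direction was opposite to that of Cdkn1b and Cdkn1c, but its groups overlapped. Pyruvate replicate 3, at 20.7 CPM, lay above control replicate 2, at 19.6 CPM. An opposite-strand model overlaps Cdkn1a. Cdkn3, a CDK phosphatase, stood at log2 0.23 (adjusted p = 0.349 by edgeR).

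Genes of D-type cyclin turnover had 6 of 13 above 0 and a median of -0.01, which was 0.05 without control replicate 2 and -0.09 without control replicate 3. Cul1, the scaffold of SCF ubiquitin ligases, stood at log2 -0.19, Fbxo31, an F-box protein that targets cyclin D1, at 0.22 and Fbxw8 at 0.13, with adjusted p between 0.352 and 0.548 by edgeR. Without control replicate 2 these were -0.12 for Cul1, 0.12 for Fbxo31 and 0.05 for Fbxw8. Fbxo31 was 0.10 without pyruvate replicate 1, and Fbxw8 was 0.20 without control replicate 1 and 0.06 with the trend removed. Exons of Cul1 and Fbxw8 overlap opposite-strand models. Growth factor signalling toward the D-type cyclins had 13 of 27 genes above 0 and a median of -0.01, which was 0.03 without control replicate 2. Foxo3, a transcription factor that growth factor signalling holds inactive, had 236, 205 and 202 CPM in pyruvate replicates 1 to 3, against 156, 191 and 159 CPM in control replicates 1 to 3. The groups did not overlap (log2 0.35, SE 0.10, adjusted p = 0.202 by edgeR), and Foxo3 rose without control replicate 2 (log2 0.44, adjusted p = 0.0158 by edgeR), with 0.0158 to 0.497 over all alternatives. Mycn, a MYC-family transcription factor, stood at 138 ± 2.56 CPM in pyruvate medium and 163 ± 3.42 CPM in control (log2 -0.24, adjusted p = 0.182 by edgeR). Bcl6b, induced by GDNF in these cells, stood at 258 ± 61.6 CPM in pyruvate medium and 364 ± 6.42 CPM in control (log2 -0.50, adjusted p = 0.225 by edgeR), with pyruvate replicate 1 lowest at 189 CPM and a log2 fold change of -0.31 without it.

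**Figure D5:**
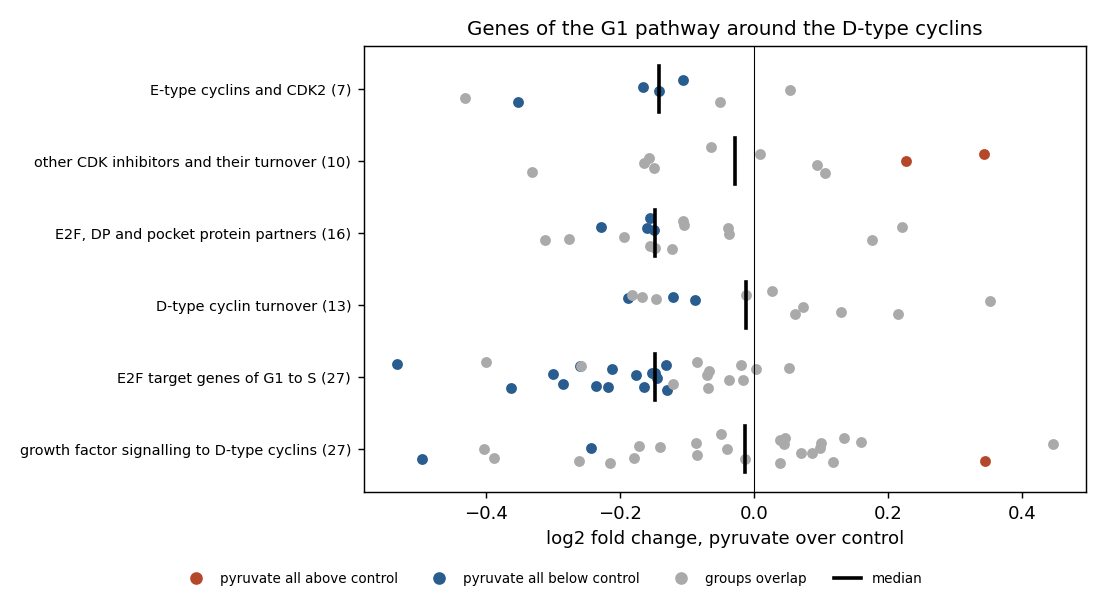
Log2 fold change of pyruvate over control for each gene of the 6 lists around the D-type cyclins, with list sizes in brackets, medians as black bars, and colours for genes whose pyruvate libraries lie all above (red) or all below (blue) control. Medians are -0.15 for E2F targets and -0.14 for the list of E-type cyclins and CDK2, and -0.01 for cyclin turnover and growth factor signalling.

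Genes whose levels over the 6 libraries were most like those of the cyclins were named by Pearson r of log2 CPM among 10527 genes. For Ccnd1 they were Psme3, Arrdc4 and Efcab2 with r of 0.998, 0.998 and 0.996, and 383 genes (3.64%) reached at least 0.9. Arrdc4, an arrestin-domain gene that responds to glucose metabolites, stood at 24.3 ± 1.89 CPM in pyruvate medium and 52.8 ± 2.59 CPM in control. For Ccnd2 they were Itga1, Ide and Igf2bp1 with r of 0.997, 0.996 and 0.995, all highest in control replicate 2 as Ccnd2 is, and 604 genes (5.74%) reached at least 0.9. For Ccnd3 they were Gpr180, Ccdc85b and Pop4 with r of 0.994, 0.993 and 0.992, and 492 genes (4.67%) reached at least 0.9. Such r values describe 6 points that share library preparation. Ccnd1 varied little within groups (SD 0.058 on the log2 scale). A high r with it therefore mostly reflects the known difference between media and is not separate evidence.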

How the data were processed

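Polyadenylated RNA of 6 libraries was sequenced after TRIzol and column extraction with a strand-keeping preparation, per the labels' protocols. The deposited values are raw counts per Ensembl gene, whole numbers that the authors did not normalize, for 32285 genes, and 32158 of these could be paired with a symbol. Alignment and counting tools, per the submitters' processing notes, include STAR 2.7.11a and HTSeq 2.0.5, beside cutadapt 4.6 and bcl2fastq 2.20, and the build named is mm10. Which annotation release and strand setting the counting used is not given in the sources used here. Genes whose exons overlap others are uncertain for that reason. A further 3 columns matched no sample and entered no step.

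Tests used edgeR 4.0.16 under R 4.3.3 (quasi-likelihood, robust, no covariate) on genes passing filterByExpr at a count of 10, with TMM scaling and Benjamini-Hochberg adjustment at 0.05 over all 14912 genes. Levels are TMM-normalized CPM, and RPKM uses merged exons of GENCODE M21 (GRCm38). Log2 CPM had a prior count of 2. SE is the fold change divided by the root of F. Floors cover counting error only. Members and lists were chosen with earlier results of these data known. Named pathway genes are, per list, the 3 of lowest p with at least 1 CPM, any that passed, and up to 5 that passed without control replicate 2. Genes compared with the cyclins had at least 5 CPM, and model or clone names were left out. Library pairs within a group differed by more than sampling noise (chi-square per gene 3.07 to 46.8), so each was kept. Alternatives were other scalings and filters, DESeq2 1.42.0, limma-voom (limma 3.58.1), a replicate block and leave-one-out fits. A fit without each library's GC and length trend (natural splines, 5 degrees of freedom each) was chosen after seeing the data.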

Additional observations from a re-analysis of the deposited data

How the results depend on the processing

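In edgeR, 3 genes were called higher and 5 lower in pyruvate medium over the whole table. The split was 8 and 6 with library totals, 8 and 7 with upper-quartile factors, 52 and 31 with no filter, 1 and 5 with a filter of 5 CPM in 3 libraries, 161 and 127 with DESeq2, and 235 and 354 with the GC and length trend removed. Leaving out 1 library gave 0 to 351 higher and 0 to 274 lower, with both highest values without control replicate 2. Of the 100 pathway genes, 0 were called, beside 0.0536% of all genes in either direction. Lower were 1 with no filter, beside 0.371% called either way, 3 with DESeq2, beside 2.17%, and 8 with the trend removed, beside 3.95%. Leaving out 1 library gave 0 to 1 higher and 0 to 4 lower. Both highest values came without control replicate 2, beside 2.33% higher and 1.82% lower over all genes. The lists were written with earlier results known, and nothing is read from these counts. The cause of these shifts was not tested. With the replicate number as a block, 151 genes were higher and 114 lower, or 1.78% of all genes. Ccnd1 and 2 of the 100 pathway genes, Rrm2 and Prim1, were among those lower. Same-numbered libraries deviated together with correlations of 0.31, 0.31 and -0.07. Those numbered 1 and 2 matched each other best, and those numbered 3 did not. Whether same-numbered libraries share a batch was not tested. Over the 15 alternatives the log2 fold change of each member moved by less than its spread between replicates. For fits that leave out 1 library, that limit follows largely from the spread itself, and nothing is read from it. Of the 10 members, 7 crossed 0 when 1 library was left out. Cdkn2c had no value under the 5 CPM filter. Depth limits Cdkn1b and Cdkn2c, at 81 to 207 counts per library.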
